A study of Mus musculus with 24 samples.

Results

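The genes described here are those that changed in the same direction and to a similar size in 4 epithelial populations of the mouse small-intestinal crypt when neuregulin 1 (NRG1) was injected. All 24 libraries of the series were used: 12 from 3 NRG1 mice and 12 from 3 PBS mice. Each mouse gave 1 library from each sorted population, and the 4 libraries of a mouse were averaged, so that the mouse was the unit of the comparison. The NRG1 mice were male Lgr5-EGFP C57BL/6 mice given 7.5 µg NRG1 intraperitoneally every 12 h for 5 days, and the PBS mice were male Lgr5-EGFP littermates given the vehicle on the same schedule. All of them carried the reporter, in which green fluorescence marks cells that express the stem cell receptor gene Lgr5. Replicates 1 and 2 of both treatments were 15 weeks old and replicate 3 of both was 11 weeks old. Tissue was taken on day 6, villi were scraped off, and crypt cells negative for CD31 and CD45 were separated by their EGFP and CD24 signal. The brightest, Lgr5high, are labelled stem cells, Lgr5med cells are labelled immediate progenitors, Lgr5low cells later progenitors, and Lgr5neg cells differentiated cells.

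NRG1 is a ligand of the ErbB family of receptor tyrosine kinases. It binds ErbB3 and ErbB4; ErbB3 has little kinase activity of its own, pairs with ErbB2 and, once phosphorylated, recruits the regulatory subunits of PI3-kinase, while ErbB receptors also feed the RAS-ERK cascade. In the crypt, stem cells at the base give rise to dividing progenitors, which leave the cell cycle as they become absorptive enterocytes or secretory cells.

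Of 43280 gene symbols counted, 15045 passed the filter on low counts and were tested. Total counts per library ranged from 11176264 to 23343499. The lowest totals were those of Lgr5low NRG1 replicates 1 and 3 (11176264 and 12549951), against 19093589 to 23343499 in the Lgr5low PBS libraries. Mitochondrial ribosomal RNA took 49.5% to 62.4% of counts in Lgr5neg libraries, against 37.6% to 47.1% in the other populations. Lgr5 reads followed the sort order, with medians of 161, 44.5, 9.23 and 1.45 CPM (counts scaled to library size) in Lgr5high, Lgr5med, Lgr5low and Lgr5neg NRG1 libraries, against 185, 19.1, 8.83 and 1.23 CPM in the PBS libraries. Of the 9 defining markers of endothelium, erythroid cells and mesenchyme, Cdh5 and Hba-a1 had no count at all, and Kdr, Hbb-bs, Col1a1, Pdgfra and Acta2 reached at most 0.522 CPM in any library. Pecam1, the gene of the CD31 antigen used to exclude cells, reached 2.57 CPM in 1 Lgr5neg library, and Alas2 reached 1.04 CPM. Immune markers were low in the 3 EGFP-positive populations and higher in Lgr5neg cells, where Ptprc reached 24.2 CPM in 1 library. Levels below are CPM scaled by TMM over the 24 libraries. A value per mouse is the geometric mean of its 4 populations, and a difference is NRG1 minus PBS in log2 CPM with its standard error (SE).

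On average over the 4 populations, 1405 of 15045 genes (9.34%) differed between NRG1 and PBS mice at an adjusted p under 0.05, of which 517 were higher (3.44%) and 888 lower (5.9%) in NRG1 mice. Adjusted p-values given for 1 gene are those of limma on the mouse means, with Benjamini-Hochberg adjustment over the 15045 genes, unless another test is named. Of the 1405, 1334 had the same sign in all 4 populations. A gene was said to move alike when it was called on average, had a mean log2 CPM of at least 1 in each population, had 1 sign in all 4 and its smallest population difference was at least 0.5 times its largest. That held for 372 genes (2.47% of those tested), 130 higher (0.864%) and 242 lower (1.61%) in NRG1 mice. Because the sign and size in each population are part of that rule, they describe the genes and are not further evidence. Sf3b5 (ratio 0.4998) and Tspan12 (0.4991) lay just outside the ratio, and Cdk5rap2 (0.5003) just inside it.

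The shared changes were moderate in size. The median difference of the 130 higher genes was 0.48 and that of the 242 lower genes -0.56 on the log2 scale, and the extremes were 1.37 and -1.82; the median over all genes tested was 0.00. By more than 1 log2 unit, 3 of the 372 rose (H3f3a, Pik3r3 and C330027C09Rik, the last named after its value was seen) and 15 fell. The 3 NRG1 and 3 PBS libraries did not overlap in any of the 4 populations for 136 of the 372 (47 higher and 89 lower), where 1.71% of all tested genes had no overlap in all 4 in 1 direction. Within single populations, edgeR's quasi-likelihood test called 976 of 13322 genes (7.33%) in Lgr5high, 1279 of 13394 (9.55%) in Lgr5med, 59 of 13326 (0.443%) in Lgr5low and 39 of 11908 (0.328%) in Lgr5neg cells. The same test called 177, 244, 27 and 12 of the 372 genes in those 4 populations. The median size of their difference was 0.51, 0.59, 0.49 and 0.50 in that order. The rule on the ratio requires these sizes to be similar, so they are not evidence of an equal effect. Depth also differed between the libraries of these populations, and its part in the counts called was not tested.

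Both ages contributed. For all 372 genes the difference between the 15-week NRG1 and PBS mice had the same sign as that between the 11-week mice, with medians of 0.49 and 0.46 for the higher genes and -0.59 and -0.51 for the lower genes; these are the mice that chose the genes. The count of genes depended on which mice were included. A fit blocked on replicate number called 2405 of 15045 genes (967 higher and 1438 lower), of which 522 moved alike. List counts given below for the replicate block belong beside these counts and not beside the 9.34% of the main fit. Without NRG1 mouse 2, 537 genes were called and 138 moved alike; without PBS mouse 2 the counts were 653 and 140, and without PBS mouse 1 they were 831 and 217. Without NRG1 mouse 3 and without PBS mouse 3, 918 and 893 genes were called. Every one of the 372 genes kept its sign in each of those sets, as did 1404 or 1405 of the 1405 called genes. All of them were chosen from these same mice, so a kept sign is not further evidence.

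H3f3a, which encodes the replication-independent histone H3.3, had the largest shared rise. In NRG1 mice 1 to 3 it stood at 23.1, 37.4 and 40.5 CPM, against 12.4, 11.4 and 14.4 CPM in PBS mice (log2 difference 1.37, SE 0.200, adjusted p = 0.00502). The NRG1 libraries were at 29.5, 39.9 and 41.4 CPM in Lgr5high and 18.6, 35.9 and 45.3 CPM in Lgr5neg cells, against 16.7, 14.4 and 18.3 CPM in Lgr5high and 10.6, 9.50 and 9.96 CPM in Lgr5neg cells of PBS mice. All 3 NRG1 libraries lay above all 3 PBS libraries in each population, and NRG1 mouse 1 was the lowest of its group in all 4. The gene lies on chromosome 1 (GRCm38, 180800832 to 180813943, minus strand), and 2 pseudogene copies named after it are in the count table, so its reads may have been divided with near-identical copies.

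Pik3r3, a regulatory subunit of PI3-kinase, was the second largest. Its levels were 10.5, 16.2 and 12.4 CPM in NRG1 mice, against 4.30, 6.76 and 5.89 CPM in PBS mice (log2 difference 1.21, SE 0.190, adjusted p = 0.00318; chromosome 4, 116221618 to 116303056, plus strand). The difference was 1.59 in Lgr5high, 1.295 in Lgr5med, 0.91 in Lgr5low and 1.03 in Lgr5neg cells, with no overlap in any of them. The other 10 of the 12 largest shared rises lay between 0.71 and 0.95.

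Several of those 10 have known roles in cell division or RNA. Kif20b, a kinesin of cytokinesis, was at 43.3, 50.7 and 46.3 CPM in NRG1 mice, against 26.2, 28.9 and 29.7 CPM in PBS mice (0.73, SE 0.095, adjusted p = 0.000701). Cntrl, the centrosomal protein centriolin, rose by 0.86 (SE 0.130, adjusted p = 0.00217). Snhg1, a non-coding host gene of small nucleolar RNAs, was at 89.6, 94.2 and 83.9 CPM in NRG1 mice, against 56.2, 51.0 and 52.3 CPM in PBS mice (0.75, SE 0.087, adjusted p = 0.000374), and the 2 groups were far apart relative to their spread. Upf3b, a factor of nonsense-mediated mRNA decay, rose by 0.71 (SE 0.116), and Rpl10a, a protein of the large ribosomal subunit with pseudogene copies in the table, by 0.78 (SE 0.117).

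The remaining rises among the 12 were metabolic or signalling genes. Camk4, a calcium/calmodulin-dependent kinase, rose by 0.95 (SE 0.174), Acadsb, a mitochondrial dehydrogenase of branched-chain acyl-CoA, by 0.83 (SE 0.116) and Fam134b, a receptor for autophagy of the endoplasmic reticulum, by 0.74 (SE 0.136). Glipr2, a Golgi-associated protein, rose by 0.79 (SE 0.156), and Blnk, an adaptor best known from B cells, by 0.78 (SE 0.146). Of the 12 largest rises, only Glipr2 lost its call in any alternative that was run, with the 15-week mice alone.

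**Figure D1:**
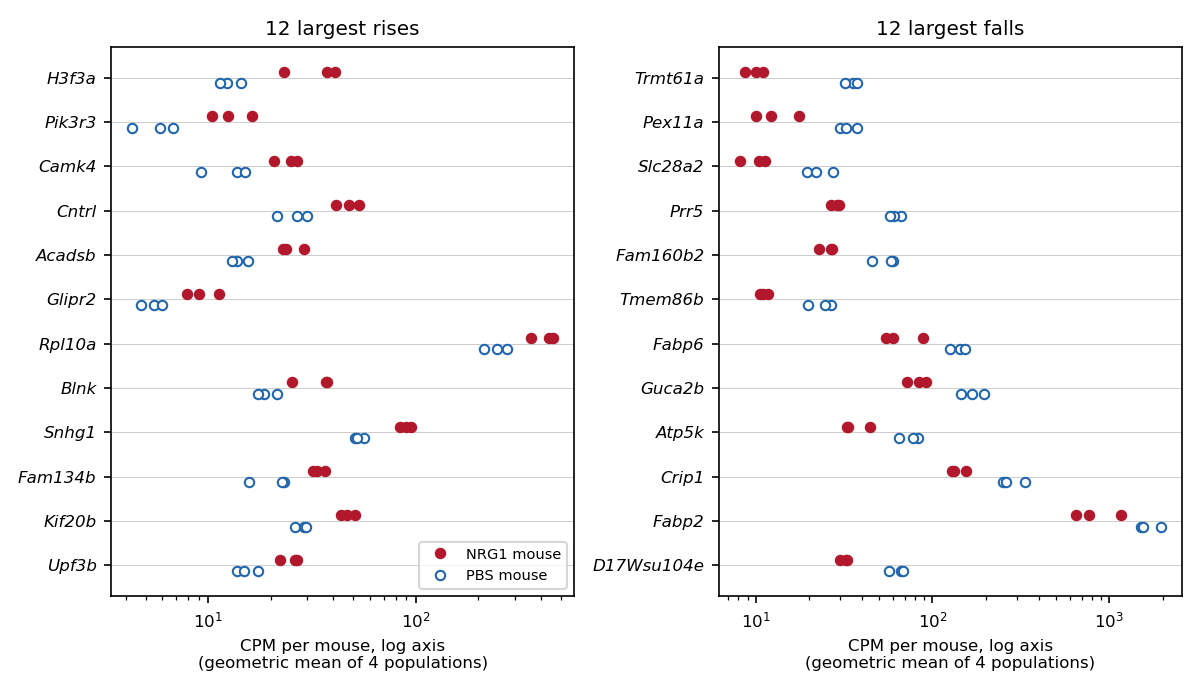
Level per mouse of the 12 largest shared rises (left) and falls (right); the x axis is CPM on a log scale and each point is 1 mouse, the geometric mean of its 4 populations (filled, NRG1; open, PBS; n = 3 each). The 3 NRG1 mice and the 3 PBS mice do not overlap for any of the 24 genes, which the rule for naming them required.

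Trmt61a, the catalytic subunit of the tRNA methyltransferase that forms 1-methyladenosine, had the largest shared fall. It stood at 10.1, 11.0 and 8.74 CPM in NRG1 mice, against 35.4, 37.4 and 32.2 CPM in PBS mice, a level 3.53-fold lower (log2 difference -1.82, SE 0.112, adjusted p = 4.69e-06). In Lgr5med cells the NRG1 libraries were at 17.5, 14.8 and 12.8 CPM, against 73.9, 67.1 and 59.9 CPM in the PBS libraries; in Lgr5neg cells, where the gene was least abundant, they were at 3.04, 4.08 and 1.89 CPM, against 10.0, 8.29 and 10.6 CPM. No population had an overlap, and edgeR called the fall within each (adjusted p = 0.000401, 5.94e-06, 0.00271 and 0.0416 from Lgr5high to Lgr5neg). Trmt61a was 1 of 5 genes that edgeR called in 1 direction in all 4 populations, the others being Prr5, D17Wsu104e and, named after their values were seen, F11r, a tight junction adhesion molecule, and 4933415A04Rik. It lies on chromosome 12 (111678105 to 111683902, plus strand).

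Pex11a, a peroxisomal membrane protein that promotes peroxisome division and is a target of the fatty acid receptor PPARalpha, was next. Its levels were 17.5, 12.2 and 10.0 CPM in NRG1 mice, against 37.6, 30.2 and 32.2 CPM in PBS mice (log2 difference -1.36, SE 0.183, adjusted p = 0.0026; chromosome 7, 79735957 to 79743131, minus strand). In Lgr5high cells the NRG1 libraries were at 8.04, 7.12 and 4.40 CPM, against 18.7, 19.8 and 18.3 CPM in PBS libraries. The level increased toward Lgr5neg cells in both treatments, to 48.9, 34.1 and 30.5 CPM in NRG1 libraries, against 84.0, 64.3 and 73.4 CPM in PBS libraries, and the groups stayed apart there as well.

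Prr5, a component of the mTORC2 kinase complex, was at 29.5, 28.8 and 26.7 CPM in NRG1 mice, against 66.0, 60.3 and 57.6 CPM in PBS mice (log2 difference -1.11, SE 0.090, adjusted p = 7.88e-05). edgeR called it in all 4 populations too (adjusted p = 0.00196, 9.68e-05, 0.00786 and 0.0363). Slc28a2, a sodium-coupled nucleoside transporter, fell by 1.2 (SE 0.149) and Tmem86b, a lysoplasmalogenase, by 1.09 (SE 0.122). Atp5k, subunit e of the mitochondrial ATP synthase, was at 44.5, 33.3 and 32.8 CPM in NRG1 mice, against 82.9, 78.0 and 64.6 CPM in PBS mice (-1.03, SE 0.129, adjusted p = 0.000734). Fam160b2 fell by 1.09 (SE 0.115) and D17Wsu104e by 0.99 (SE 0.095).

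The other 4 of the 12 largest falls are genes abundant in the gut epithelium. Guca2b, the precursor of the gut peptide uroguanylin, was at 71.8, 83.4 and 91.5 CPM in NRG1 mice, against 195, 168 and 145 CPM in PBS mice (-1.04, SE 0.119, adjusted p = 0.000379). Fabp2, the intestinal fatty acid-binding protein, was at 649, 769 and 1157 CPM in NRG1 mice, against 1959, 1518 and 1544 CPM in PBS mice (-0.997, SE 0.200, adjusted p = 0.0166); it was not called without NRG1 mouse 2 or without PBS mouse 2. Fabp6, the ileal bile acid-binding protein, fell by 1.09 (SE 0.170), with a difference of -1.38 between the 15-week and -0.50 between the 11-week mice. Crip1, a LIM-domain protein abundant in intestine, was at 132, 129 and 155 CPM in NRG1 mice, against 333, 250 and 260 CPM in PBS mice (-1.01, SE 0.117, adjusted p = 0.000374). On counts summed per mouse, Guca2b, Fabp2 and Fabp6 were called by neither edgeR (adjusted p = 0.139, 0.156 and 0.204) nor DESeq2 (0.0761, 0.126 and 0.179), and Slc28a2 and Tmem86b were not called by edgeR (0.0977 and 0.0554). Such sums weight each population by its reads of the gene, whereas the average gives the 4 populations equal weight, so the 2 are different quantities. For Guca2b the libraries overlapped in 2 of the 4 populations and for Fabp2 in 3.

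**Figure D2:**
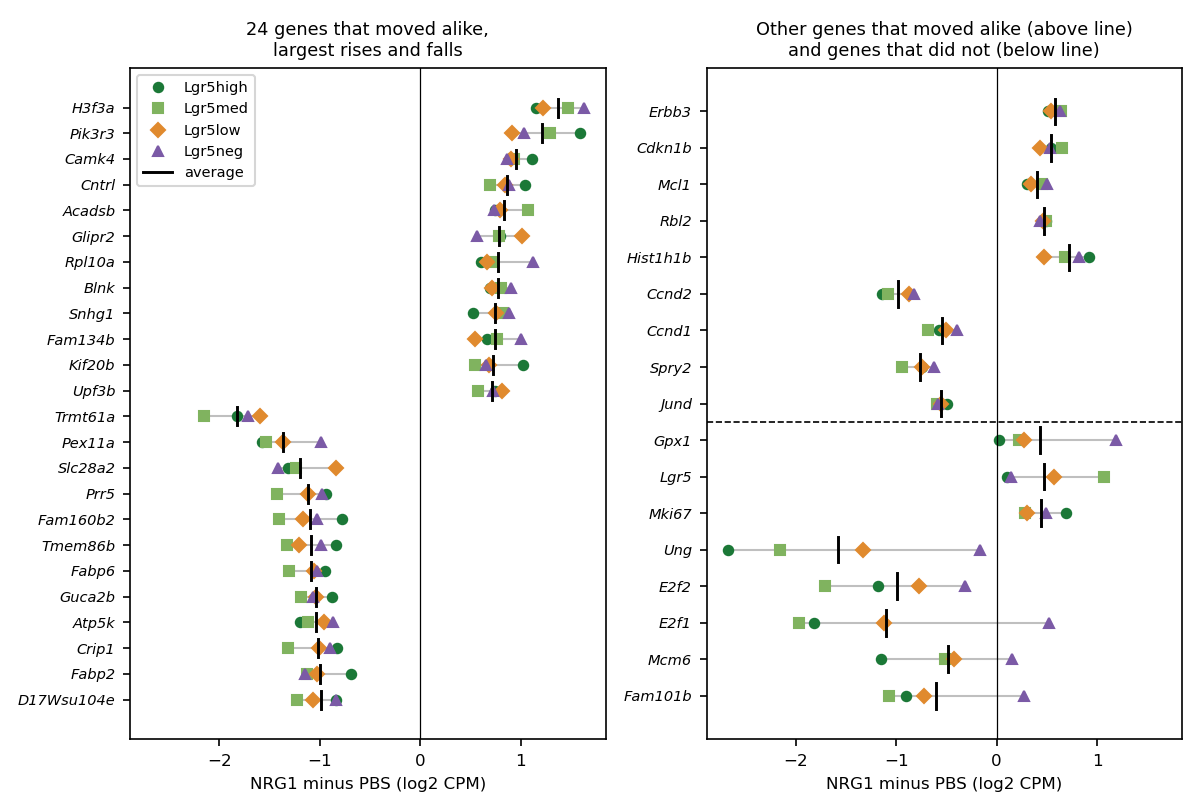
NRG1 minus PBS difference in log2 CPM within each population (coloured symbols, means of 3 against 3 libraries) and on average (black bar); the left panel holds the 12 largest shared rises and falls, the right panel 9 further genes that moved alike above the dashed line and 8 genes that did not below it. The 4 symbols of H3f3a, Erbb3 or Trmt61a lie close together, whereas those of Ung spread between -2.67 in Lgr5high and -0.16 in Lgr5neg cells.

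The 250 bases before the RefSeq start site of the 2 largest rises and the 2 largest falls are shown because these genes moved together in all populations (GRCm38.p6, gene strand, 5′ to 3′, bases in capitals mark any match to the 6 motifs named below).
H3f3a, chr1:180813606-180813855: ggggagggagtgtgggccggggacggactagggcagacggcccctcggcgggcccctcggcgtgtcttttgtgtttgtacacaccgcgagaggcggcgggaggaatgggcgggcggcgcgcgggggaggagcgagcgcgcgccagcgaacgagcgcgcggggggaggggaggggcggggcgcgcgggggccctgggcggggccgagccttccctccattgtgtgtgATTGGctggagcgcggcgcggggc
Pik3r3, chr4:116221358-116221607: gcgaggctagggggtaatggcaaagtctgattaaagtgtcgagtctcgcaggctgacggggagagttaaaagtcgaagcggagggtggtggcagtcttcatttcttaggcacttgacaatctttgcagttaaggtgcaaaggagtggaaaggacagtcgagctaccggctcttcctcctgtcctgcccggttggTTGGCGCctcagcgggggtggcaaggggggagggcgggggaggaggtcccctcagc
Trmt61a, chr12:111677855-111678104: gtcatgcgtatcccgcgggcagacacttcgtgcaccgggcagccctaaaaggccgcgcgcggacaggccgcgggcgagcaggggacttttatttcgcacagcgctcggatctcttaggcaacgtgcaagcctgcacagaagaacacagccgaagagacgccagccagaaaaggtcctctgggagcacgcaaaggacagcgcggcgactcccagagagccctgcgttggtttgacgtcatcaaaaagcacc
Pex11a, chr7:79743132-79743381: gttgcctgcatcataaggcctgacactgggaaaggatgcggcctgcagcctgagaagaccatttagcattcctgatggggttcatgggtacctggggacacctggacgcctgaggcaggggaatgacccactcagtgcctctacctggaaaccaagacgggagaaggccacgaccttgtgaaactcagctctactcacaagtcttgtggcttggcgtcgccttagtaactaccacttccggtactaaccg
The capitals in H3f3a are a CCAAT box on the other strand, 24 bases before the RefSeq start, and those in Pik3r3 are the E2F letters TTGGCGC, 56 bases before it. No match was found in the windows of Trmt61a and Pex11a, which says only that these letters are not there. The H3f3a window lies inside the gene span given above, because the RefSeq start used here is downstream of that span's 5′ end.

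Promoter windows (250 bases before to 50 after the start) were available for 100 of the 130 higher, 183 of the 242 lower and 10240 of the 15045 tested genes. Counting both strands, E2F letters (TTCCCGC or TTGGCGC) were in 16.0% of the higher, 12.0% of the lower and 12.2% of all tested windows. The CCAAT box (CCAAT) was in 44.0%, 35.5% and 38.6% of them in that order, the CHR element (TTTGAA) in 16.0%, 13.7% and 12.1%, and the E-box (CACGTG) in 8.0%, 14.2% and 10.0%. The nuclear receptor letters AGGTCA was in 9.0%, 13.1% and 12.5% and the letters TATAAA in 4.0%, 8.74% and 7.46%. These shares lie close to those of all genes tested and were not tested.

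The receptor for NRG1 was among the genes that moved alike. Erbb3 was at 282, 277 and 276 CPM in NRG1 mice, against 198, 170 and 194 CPM in PBS mice, a level 1.49-fold higher (log2 difference 0.58, SE 0.090, adjusted p = 0.0022; chromosome 10, 128567523 to 128589652, minus strand). The NRG1 libraries were at 236, 230 and 202 CPM in Lgr5high, 202, 209 and 197 in Lgr5med, 233, 221 and 235 in Lgr5low and 570, 555 and 623 CPM in Lgr5neg cells. The PBS libraries were at 179, 136 and 156 CPM in Lgr5high, 142, 121 and 130 in Lgr5med, 173, 140 and 164 in Lgr5low and 346, 363 and 422 CPM in Lgr5neg cells. No population had an overlap, and the differences of 0.51, 0.64, 0.54 and 0.63 were close to each other although the transcript was most abundant in Lgr5neg cells. Erbb3 stayed called in all 26 alternatives.

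The other receptors did not pass the test. Erbb2, the partner of ErbB3, was at 93.0, 91.3 and 94.1 CPM in NRG1 mice, against 108, 90.4 and 91.8 CPM in PBS mice (-0.06, SE 0.092, adjusted p = 0.76), and its sign turned in 4 alternatives. Egfr was at 55.4, 47.8 and 48.0 CPM in NRG1 mice, against 49.3, 45.8 and 43.4 CPM in PBS mice (0.12, SE 0.094, adjusted p = 0.445). Erbb4 had 2 counts in all 24 libraries and was not tested. Of 12 tested ErbB receptors and inhibitors, Erbb3 rose and Lrig2, a transmembrane regulator of receptor tyrosine kinases, fell (-0.37, SE 0.106, adjusted p = 0.0421). That is 16.7% of the list called, against 9.34% of all genes tested. Lrig2 was not called in 12 of 26 alternatives, among them leaving out any 1 mouse. None of 7 tested ErbB ligands was called by limma, and 0 had an unadjusted p under 0.05; edgeR on the 24 libraries as if independent called 1, and edgeR and DESeq2 on sums per mouse and voom called 0.

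Downstream of the receptors, the share of genes called was near that of all genes tested (9.34%). In the ERK feedback list 2 of 18 genes fell and none rose (11.1% called; 1 rise and 3 falls with the replicate block, 1 fall after the length and GC correction described below). Spry2, a feedback inhibitor that ERK activity normally induces, was at 6.22, 6.38 and 7.30 CPM in NRG1 mice, against 11.7, 12.3 and 9.82 CPM in PBS mice (-0.76, SE 0.132, adjusted p = 0.0041), moved alike and had no overlap in any population. Dusp7, an ERK phosphatase, fell by 0.72 (SE 0.169, adjusted p = 0.0181) at levels of 2.48 to 3.15 CPM in NRG1 mice, against 4.23 to 4.97 CPM in PBS mice, and was not called without NRG1 mouse 3, PBS mouse 2 or PBS mouse 3. Of 24 genes of PI3-kinase and insulin signalling, Pik3r3 and Sesn3, a stress-induced regulator of mTORC1, rose (Sesn3 by 0.74, SE 0.135, adjusted p = 0.00525) and none fell, which is 8.33% called (3 rises and 1 fall with the replicate block).

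**Figure D3:**
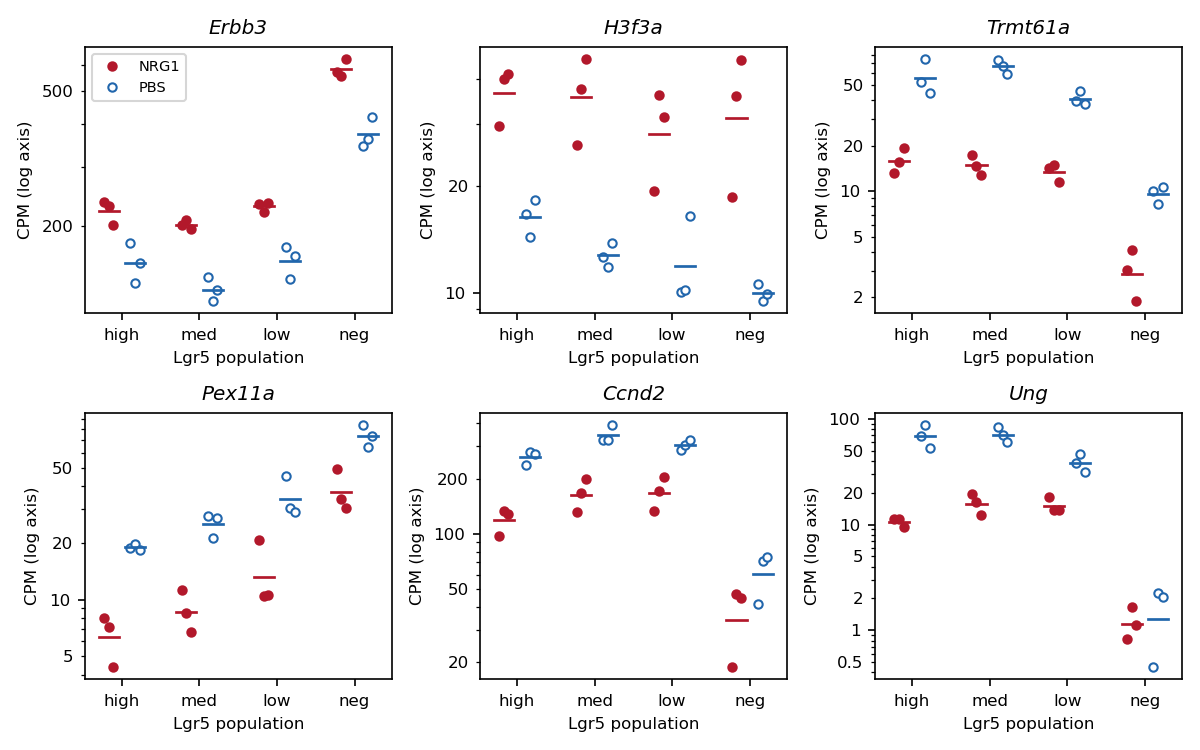
CPM of 6 genes in every library on log axes, by population (filled, NRG1; open, PBS; bars are geometric means of 3 libraries). Erbb3 and H3f3a are higher and Trmt61a, Pex11a and Ccnd2 lower in NRG1 libraries by a similar factor in each population, although Ccnd2 overlaps in Lgr5neg cells, as Ung does.

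Some regulators of the G1 phase were among the shared changes. Cyclin D2 (Ccnd2), which partners the kinases that inactivate RB, was at 75.6, 116 and 124 CPM in NRG1 mice, against 174, 211 and 226 CPM in PBS mice (-0.98, SE 0.184, adjusted p = 0.0142), with a difference of -1.14, -1.08, -0.87 and -0.82 from Lgr5high to Lgr5neg and an overlap in Lgr5neg cells alone (18.9 to 47.3 CPM in NRG1 libraries, against 41.7 to 75.1 CPM in PBS libraries); it was not called without PBS mouse 2. Ccnd1, cyclin D1, fell by 0.54 (SE 0.127, adjusted p = 0.0202) and was not called without PBS mouse 2 or PBS mouse 3. Cdkn1b, the cyclin-dependent kinase inhibitor p27, was at 40.1, 47.1 and 49.3 CPM in NRG1 mice, against 31.8, 32.0 and 29.9 CPM in PBS mice (0.54, SE 0.097, adjusted p = 0.00502). Rbl2, the RB-family protein p130, was at 46.3, 47.9 and 45.3 CPM in NRG1 mice, against 35.6, 30.9 and 34.6 CPM in PBS mice (0.47, SE 0.089, adjusted p = 0.00667), and its 4 population differences, 0.49, 0.49, 0.46 and 0.43, were among the most even of all. Both Cdkn1b and Rbl2 had no overlap in any population. Across the G1 list of 15 genes 1 rose and 5 fell, and without PBS mouse 2 only 1 of the 5 falls was called; the rise and 2 of the falls moved alike. Across 19 genes of the E2F and RB family 2 rose and 4 fell, and 1 in each direction moved alike. The share called was 40% in the G1 list and 31.6% in the E2F and RB family, against 9.34% of all genes tested.

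Mitotic genes rose together on average but not evenly. In the G2/M and mitosis list 28 of 36 genes rose and none fell, against 9.34% of all genes called, and the median difference was 0.53. The median was 0.79 in Lgr5high, 0.39 in Lgr5med, 0.33 in Lgr5low and 0.56 in Lgr5neg cells. The rule for moving alike was met by 1 of the 28: Dlgap5, a spindle protein, named after its value was seen (0.86, SE 0.1202). That rule also requires a mean log2 CPM of at least 1 in Lgr5neg cells. There the list took 0.0212% to 0.0302% of counts outside mitochondrial ribosomal RNA in PBS libraries, against 0.708% to 0.790% in Lgr5high PBS libraries. Cenpa, the centromeric histone, was at 29.9, 31.2 and 27.1 CPM in NRG1 mice, against 16.8, 15.9 and 14.7 CPM in PBS mice (0.90, SE 0.1003, adjusted p = 0.000361). Hmmr, a spindle protein, rose by 0.77 (SE 0.088, adjusted p = 0.000361). Mki67, the proliferation antigen Ki-67, was at 475, 507 and 474 CPM in NRG1 mice, against 323, 365 and 387 CPM in PBS mice (0.44, SE 0.097, adjusted p = 0.0132), and was not called without NRG1 mouse 2 or PBS mouse 1. With the 15-week mice alone, 12 of the 36 were called. The list took 0.683% ± 0.0431 of counts outside mitochondrial ribosomal RNA in NRG1 mice and 0.473% ± 0.0213 in PBS mice (SD, n = 3 each; two-sided exact permutation p = 0.1, the smallest that 3 against 3 allows).

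Most DNA replication genes did not pass the test. Of 44 genes of the S phase list, 1 rose, 9 fell and 34 were not called, with list medians of -0.44 in Lgr5high, -0.34 in Lgr5med, -0.16 in Lgr5low and 0.15 in Lgr5neg cells. The rise was Gins4, part of the replicative helicase, which moved alike (0.49, SE 0.1004, adjusted p = 0.0098; not called without NRG1 mouse 2 or PBS mouse 2), and none of the 9 falls moved alike. Without PBS mouse 1 only 2 of the falls were called, without NRG1 mouse 2 only 3, and with the 15-week mice alone only 2. Clspn, the checkpoint mediator claspin, had differences of -0.63, -0.82, -0.57 and -0.96 from Lgr5high to Lgr5neg and missed the rule on its low level, with 5.98, 6.16 and 5.19 CPM in NRG1 mice, against 10.3, 10.3 and 8.52 CPM in PBS mice. Of 20 histone genes 2 rose, of which Hist1h1b moved alike (0.72, SE 0.135, adjusted p = 0.00657) and Hist1h4d missed the ratio with 0.50 in Lgr5low and 1.04 in Lgr5neg cells. Calls made up 22.7% of the S phase list and 10% of the histone list, against 9.34% of all genes tested. The replicate block gave 2 rises and 13 falls in the S phase list, and 2 rises and 1 fall in the histone list.

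Calls in the lists of fat absorption and oxidation were falls. In the chylomicron and lipid absorption list 10 of 20 genes fell and none rose (median -0.41), in the enterocyte marker list 10 of 29 fell and none rose (median -0.38), and in the list of fatty acid oxidation and PPAR targets 8 of 35 fell and none rose (median -0.27); the other 10, 19 and 27 genes were not called. In that order 50%, 34.5% and 22.9% of the lists were called, against 9.34% of all genes tested. The lists share genes, so these counts are not separate results. Fabp1, Fabp2 and, named after their values were seen, Apoa1, Apoc3 and Apoa4 are among the falls of both the chylomicron and the enterocyte list. Fabp1 and Fabp2 are also among the falls of the PPAR list. With the replicate block the falls numbered 10, 17 and 14, and 1 gene of the first list rose. Fabp1, the liver-type fatty acid-binding protein, belongs to all 3 lists and was at 142, 136 and 108 CPM in NRG1 mice, against 299, 301 and 313 CPM in PBS mice (-1.25, SE 0.107, adjusted p = 9.94e-05), but its differences of -1.33, -1.56, -1.42 and -0.70 were too uneven to count as alike. Fabp1 was not called by edgeR or DESeq2 on counts summed per mouse (adjusted p = 0.217 and 0.225), where populations with more reads of the gene weigh more than in the average. Car4, a brush border carbonic anhydrase, fell by 1.502 on average (SE 0.158, adjusted p = 0.000361) and by 2.46 in Lgr5med against 0.33 in Lgr5neg cells. Apoc2, an apolipoprotein that activates lipoprotein lipase, fell by 0.85 (SE 0.132, adjusted p = 0.00234), which neither tool called on counts summed per mouse, nor edgeR on 24 libraries, nor voom. Of the 8 falls in the PPAR list 4 moved alike, among them Pex11a, Fabp2 and, named after its value was seen, the thioesterase gene Acot2 (-0.55, SE 0.129); without NRG1 mouse 2 and without PBS mouse 1, 3 and 4 of the 8 were called.

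The summed share of enterocyte transcripts was lower on average in NRG1 mice, with a p that cannot pass 0.05 in this design. The enterocyte marker list took 2.39% ± 0.293 of counts outside mitochondrial ribosomal RNA in NRG1 mice and 3.19% ± 0.468 in PBS mice (SD, n = 3 each; two-sided exact permutation p = 0.1). Its part in the falls was not tested. Fewer cells of a type and less RNA per cell cannot be told apart in bulk samples such as these. Goblet markers took 1.57% ± 0.538 in NRG1 mice and 2.01% ± 0.660 in PBS mice (exact permutation p = 0.3); limma called none of 19, with 0 at an unadjusted p under 0.05, while edgeR and DESeq2 on sums per mouse called 1 and 2, voom 1 and edgeR on 24 libraries 2. Of the 19, 8 were lower with the replicate block, where the enteroendocrine falls went to 9 of 27 against 2 (7.41%) without it. The block called 1438 of all 15045 genes lower.

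**Figure D4:**
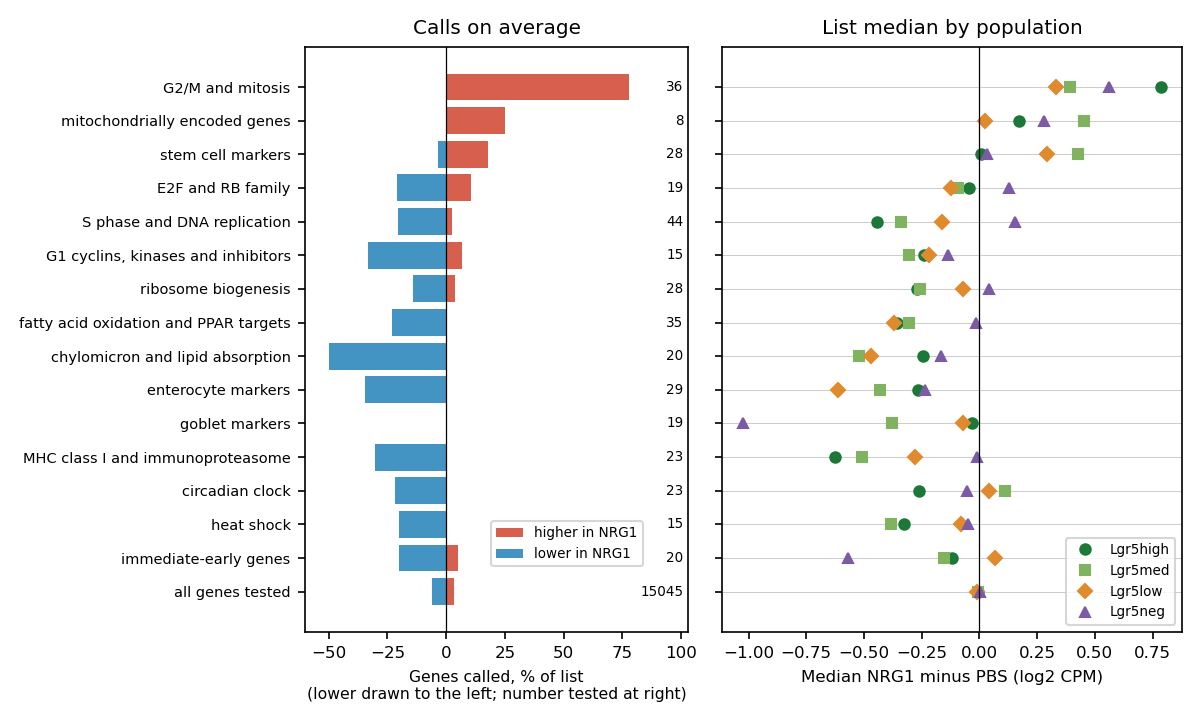
Share of each gene list called on average (left; higher in NRG1 drawn to the right, lower to the left, number of genes tested at the edge) and median NRG1 minus PBS difference in log2 CPM by population (right). The G2/M list lies above 0 in all 4 populations and the chylomicron and enterocyte lists below 0 in all 4, while the S phase list is below 0 in 3 and above it in Lgr5neg cells.

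Other groups held shared changes too. Gar1, a core protein of the small nucleolar complexes that guide pseudouridine formation, was at 26.3, 23.3 and 19.96 CPM in NRG1 mice, against 42.5, 40.5 and 38.9 CPM in PBS mice (-0.82, SE 0.107, adjusted p = 0.000721). Of 28 ribosome biogenesis genes 4 fell and 1 rose. Without NRG1 mouse 2 or without PBS mouse 2, 1 ribosome biogenesis gene was called lower. Dnajb1, an HSP40 co-chaperone, was at 46.2, 35.3 and 32.6 CPM in NRG1 mice, against 63.9, 81.6 and 61.6 CPM in PBS mice (-0.86, SE 0.141, adjusted p = 0.00454), in a heat shock list with 3 falls and no rise among 15. Among 20 immediate-early genes 4 fell and 1 rose (6 and 1 with the replicate block). The share called was 17.9% of ribosome biogenesis, 20% of heat shock and 25% of immediate-early genes, against 9.34% of all genes tested. Ier5, an immediate-early gene, fell alike (-0.91, SE 0.159, adjusted p = 0.00707), as did the AP-1 subunit Jund (-0.55, SE 0.136, adjusted p = 0.022), which was not called without NRG1 mouse 2, PBS mouse 1 or PBS mouse 2.

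Survival and p53-linked genes were mixed. Mcl1, an anti-apoptotic BCL2 protein, was at 135, 146 and 145 CPM in NRG1 mice, against 104, 105 and 115 CPM in PBS mice (0.40, SE 0.086, adjusted p = 0.0124), and was not called without NRG1 mouse 2, PBS mouse 1 or PBS mouse 2. Perp, a p53 target and desmosomal protein, fell by 0.53 (SE 0.094, adjusted p = 0.00475). Trp53inp1, another p53 target, rose by 1.12 (SE 0.167, adjusted p = 0.00229) but between 0.80 in Lgr5high and 1.66 in Lgr5med cells, just outside the ratio. Of 27 p53 targets 3 rose and 1 fell (5 and 1 with the replicate block), while Cdkn1a itself was not called (-0.20, SE 0.220, adjusted p = 0.636). In the MHC class I list 7 of 23 fell and none rose (11 with the replicate block; 3 and 4 without NRG1 mouse 2 and PBS mouse 1), with a median of -0.62 in Lgr5high and -0.01 in Lgr5neg cells. Calls made up 14.8% of the p53 targets and 30.4% of the MHC class I list, against 9.34% of all genes tested.

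The median change of stem cell markers differed between populations. Of 28 markers 5 rose and 1 fell (10 and 2 with the replicate block), which is 21.4% called, against 9.34% of all genes tested. Without NRG1 mouse 2 only 1 marker was called higher. No stem cell marker moved alike, where 2.47% of all tested genes did. That rule also requires a mean log2 CPM of at least 1 in Lgr5neg cells. Low markers such as Ascl2 did not reach it (0.402 to 0.524 CPM in Lgr5neg PBS libraries), whatever their change. The list median was 0.43 in Lgr5med and 0.29 in Lgr5low but 0.01 in Lgr5high and 0.03 in Lgr5neg cells. Olfm4, a marker of crypt base stem cells, differed by -0.08, 0.91, 1.11 and 0.32 from Lgr5high to Lgr5neg (average 0.57, SE 0.124, adjusted p = 0.0136; not called without NRG1 mouse 2 or PBS mouse 2). Lgr5 differed by 0.10, 1.06, 0.57 and 0.15 (average 0.47, SE 0.132, adjusted p = 0.0412) and was called in 11 of 25 alternatives; it was lost without NRG1 mouse 1 or 2 and without PBS mouse 2 or 3. Lgr5 expression also set the gates. Myc fell by 0.41 on average (SE 0.113, adjusted p = 0.0386) and was lost without NRG1 mouse 1 or 3 and without PBS mouse 1 or 3.

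Whether the NRG1 effect differed between populations was tested with edgeR's interaction terms, with each mouse as a fixed term. Of 15045 genes, 19 passed (0.126%) and 1290 had an unadjusted p under 0.05. None of the 372 genes passed, by edgeR or by voom, and 3 had an unadjusted p under 0.05 (Rpl10a, Pex11a and, named after its value was seen, Rpn1); the rule on their ratio had already selected against such genes. For Erbb3 the adjusted interaction p was 0.968, and for Trmt61a 0.768; such values do not show that the effects were equal. Ung, the uracil-DNA glycosylase of base excision repair, passed (adjusted p = 0.034). It was at 11.2, 11.3 and 9.52 CPM in NRG1 libraries of Lgr5high cells, against 68.3, 87.3 and 53.4 CPM in PBS libraries, but at 0.821, 1.64 and 1.13 CPM in NRG1 libraries of Lgr5neg cells, against 0.449, 2.25 and 2.06 CPM in PBS libraries, where the groups overlapped. E2f1, a transcription factor of S phase entry, had differences of -1.82, -1.96, -1.12 and 0.52, the last at levels under 1 CPM.

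A technical measure moved with the treatment in all populations. The mitochondrial ribosomal RNA mt-Rnr1 had 43.4 ± 5.41 counts per 100 counts of mt-Rnr2 in NRG1 mice and 24.9 ± 4.40 in PBS mice (SD, n = 3 each; two-sided exact permutation p = 0.1). The 12 NRG1 libraries lay between 38.0 and 54.2 and the 12 PBS libraries between 18.1 and 42.9, so that only 1 PBS library, of Lgr5high cells, reached the NRG1 range. Gene length and base composition moved with it, as medians over protein-coding genes show. The 124 protein-coding genes among the 130 higher had a median exon length of 6003.5 bases and a GC content of 45.2%. The 239 among the 242 lower had 3397 bases and 51.2%, and all tested protein-coding genes 4427 bases and 49.7%. Shares by length were taken over the 8840 protein-coding genes with a mean log2 CPM of at least 1 in each population. Of the 154 with exons under 1000 bases 2.6% were called higher and 18.8% lower, and of the 3127 over 6000 bases 5.69% and 5.15%. Across 8840 genes the average difference had a Spearman rho of 0.19 with exon length and -0.28 with GC content; genes share libraries and are not independent replicates.

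When the part of each library's deviation that followed exon length and GC content was removed, as an alternative chosen after seeing the data, 1312 genes were called and 396 moved alike. Of the 363 shared genes with both values, all kept their sign, 302 remained called and 254 still moved alike (82 higher and 172 lower). Corrected differences were 1.34 for H3f3a, 1.17 for Pik3r3, 0.60 for Erbb3, -1.66 for Trmt61a, -1.32 for Pex11a and -1.02 for Ccnd2. The G2/M count stayed at 28 rises. Falls went to 1 in the immediate-early list, against 4 before the correction, to 4 in the MHC class I list, against 7, and to 1 among Wnt targets, against 3. Of the genes described above, Jund (-0.27, adjusted p = 0.153), Dusp7 (0.0513), Lgr5 (0.0911) and Myc (0.115) were no longer called; nor were Bad, Cad, Chac1 and Ephb3, which the rule also names. Library preparation and NRG1 cannot be told apart for what the correction leaves or removes.

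**Figure D5:**
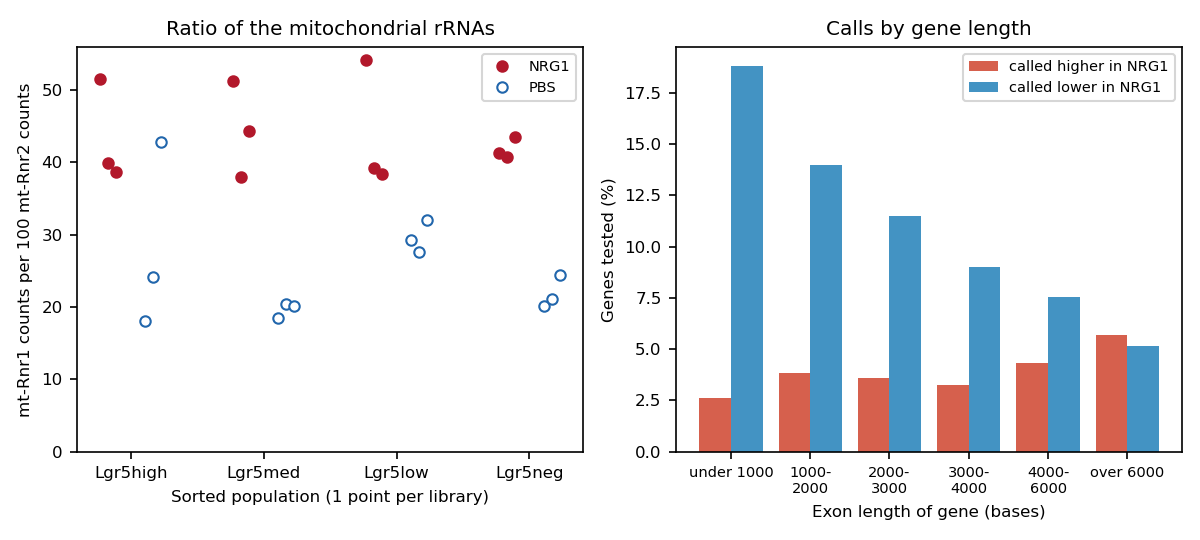
Left, counts of mt-Rnr1 per 100 counts of mt-Rnr2 in each library (filled, NRG1; open, PBS). Right, share of genes called higher (red) or lower (blue) in NRG1 mice by exon length, over 8840 protein-coding genes with a mean log2 CPM of at least 1 in each population. Calls of lower genes went with short exons, at 18.8% under 1000 bases and 5.15% over 6000.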

How the data were processed

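RNA was measured in 24 libraries (6 mice, 4 sorted populations each). NuGEN Ovation kits turned 15 ng of RNA into each library, which was read from 1 end over 76 nt, per the series' design text. STAR was the aligner and featureCounts the counter, with GRCm38 as the build, per the submitters' processing notes. Versions, annotation release and strand setting are not given in the sources used here. Values in the deposited table are counts per gene symbol, whole numbers without normalisation. Symbols were matched to GENCODE vM21 of GRCm38 for coordinates, exon length and GC content (39469 directly, 954 through an older symbol, 2857 not matched), and promoters are RefSeq's on GRCm38.p6. Without a known strand setting, reads of overlapping antisense genes cannot be told apart.

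Genes were filtered with edgeR 4.0.16 (minimum count 10, minimum total 15) and scaled by TMM in R 4.3.3. Each mouse's mean log2 CPM (prior count 2) over its 4 libraries was tested with limma 3.58.1 (trend, robust), 3 NRG1 against 3 PBS mice, since edgeR has no term for a mouse as a random unit; edgeR on 24 libraries and on sums per mouse, voom and DESeq2 1.42.0 were alternatives. Within populations and for interactions (mouse as a fixed term) edgeR's quasi-likelihood test was used. No set test was run. The labels number the mice 1 to 3 in each treatment. Mouse means of same-numbered NRG1 and PBS mice deviated together from their group means (r = 0.30, 0.34 and 0.29 over 9117 genes). Other pairs had r of -0.20 to -0.06, but deviations cancel within a group, so these values are not separate support. The labels do not state that same-numbered mice are pairs. The block is therefore an alternative, given beside counts that it moves by over 1.5 times. Whether mice shared cages or preparation days is not given, and p-values measure the spread between these mice. Pairs of libraries of 1 group correlated at 0.964 or more, and none was identical.

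Genes were named by rule: the 12 largest shared rises and falls with a mean log2 CPM of at least 2 in each population and no overlap of mouse means, up to 2 rises and 2 falls per list by adjusted p, 10 fixed genes, and the 4 smallest interaction p-values among called genes. The genes described and the 41 lists were chosen with earlier results of these data known. Counts carry no molecular identifiers; 3 counts were worth 0.112 to 0.247 CPM, a floor that covers counting error only. Scripts were tested on simulated counts.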

Additional observations from a re-analysis of the deposited data

Results flagged for a closer look

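The NRG1 effect differed between the 4 populations for 5 of the genes named, by edgeR's interaction test with each mouse as a fixed term and adjustment over 15045 genes; the populations come from the same mice. E2f2, an E2F transcription factor, had an adjusted interaction p of 0.0112 and differences (NRG1 minus PBS, log2) of -1.18 in Lgr5high, -1.70 in Lgr5med, -0.77 in Lgr5low and -0.32 in Lgr5neg cells. Fam101b (adjusted p = 0.0181) differed by -0.90, -1.07, -0.72 and 0.28 in that order of populations. Mcm6, a subunit of the replicative helicase (adjusted p = 0.0228), differed by -1.15, -0.52, -0.43 and 0.15. Gpx1, a glutathione peroxidase (adjusted p = 0.0306), went the other way, with 0.03, 0.22, 0.28 and 1.19; in Lgr5neg cells it was at 544, 463 and 362 CPM in NRG1 libraries, against 209, 204 and 180 CPM in PBS libraries, and in Lgr5high cells at 137, 150 and 127 CPM, against 117, 137 and 154 CPM. Ung (adjusted p = 0.034) differed by -2.67, -2.15, -1.33 and -0.16.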

How the results depend on the processing

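The average effect (1405 genes called) gave 3418 genes with edgeR on 24 libraries as if independent, 2289 with voom and the mouse as a random block, 2405 with the replicate block, 476 with the 15-week mice alone, 537 to 1731 leaving out 1 mouse, and 768 without Lgr5high and 774 without Lgr5med libraries. The 372 genes that moved alike became 616 with edgeR on 24 libraries, 190 with 15-week mice, 138 to 456 leaving out 1 mouse, 891 without Lgr5neg libraries, 813 at a ratio of 0.3 and 82 at 0.7; other scalings, filters, prior counts, age as a term, the length and GC correction and sums per mouse stayed within 1.5 times. All 372 kept their sign in each alternative that tested them (363 under the correction), with 162 to 372 still called. The 372 were chosen from these same mice, so the kept sign is not further evidence. The 19 interactions became 65 with voom and 4 to 17 leaving out 1 mouse. Within populations, leaving out 1 replicate gave 491 to 1186 genes in Lgr5high, 422 to 1118 in Lgr5med, 1 to 72 in Lgr5low and 0 to 90 in Lgr5neg cells. Those counts moved by over 1.5 times without any NRG1 mouse or PBS mouse 2 in Lgr5high, without NRG1 mouse 2, PBS mouse 2 or PBS mouse 3 in Lgr5med, without NRG1 mouse 2 or any PBS mouse in Lgr5low, and without any 1 mouse in Lgr5neg cells. The replicate block gave 2333 in Lgr5med, 573 in Lgr5low and 839 in Lgr5neg cells, DESeq2 303 and 199 in Lgr5low and Lgr5neg cells, and no filter 497 and 272. Of 2503 values for 97 named genes, 2218 kept direction and call, 280 lost the call and 5 changed sign: Cdkn1a without NRG1 mouse 1 (0.011; -0.44 to 0.011 leaving out 1 mouse), and Erbb2 without PBS mouse 1 (0.026; -0.10 to 0.026 leaving out 1 mouse), without Lgr5med libraries (0.0028) and with the length and GC correction (0.049), alone or with the replicate block (0.049), none of them called. The replicate block ended no call of a named gene; the causes of these shifts were not tested. At 3 counts a library the floor was 0.112 to 0.247 CPM, and differences of genes near it rest on few counts. Chac1, the 1 fall of the unfolded protein response list, is such a gene. Its means by population were 0.028 to 0.298 CPM in NRG1 and 0.134 to 0.895 CPM in PBS libraries, and it was called in 13 of 24 alternatives.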

Other observations

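Redox and respiratory genes, grouped by symbol after their values were seen, also held shared falls. Of 16 peroxiredoxin and thioredoxin genes 5 fell, none rose and all 5 moved alike (31.2% called, against 9.34% of all genes tested; median of the 16 -0.05). Prdx1, a peroxidase, differed by -0.69 (SE 0.101, limma adjusted p = 0.00147), Txn1, thioredoxin, by -0.57 (SE 0.111), Txnrd1, its reductase, by -0.53 (SE 0.087), Prdx5 by -0.54 and Srxn1 by -0.51. After the length and GC correction 5 of the 16 were lower and 0 higher. Of 36 complex I genes 8 fell, 5 of them alike, and 2 rose (27.8% called, against 9.34% of all genes tested). Ndufa11 differed by -0.71 (SE 0.113) and Ndufc2 by 0.41 (SE 0.086). Complex I genes are short, with a median exon length of 1532 bases, and after the correction 5 were lower and 3 higher. Among 82 cytosolic ribosomal proteins 11 rose and 11 fell (19 and 9 of 79 after the correction). Before the correction that is 26.8% called, against 9.34% of all genes tested.

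Of 23 circadian clock genes 5 fell and none rose (median 0.03). Without PBS mouse 1 or without PBS mouse 2, 2 clock genes were called lower. Hlf, a PAR-domain transcription factor, was at 1.10, 0.874 and 0.693 CPM in NRG1 mice, against 3.01, 2.15 and 2.49 CPM in PBS mice (-1.53, SE 0.244, limma adjusted p = 0.0024), and Cry2, a clock repressor, differed by -0.71 (SE 0.127). Of 29 glycolysis and hypoxia genes 5 fell and 2 rose, and without NRG1 mouse 2 only 2 were called lower. Hk2, a hexokinase, was at 12.5, 17.8 and 14.0 CPM in NRG1 mice, against 27.7, 35.1 and 26.6 CPM in PBS mice. Of 8 mitochondrially encoded genes 2 rose, among them the cytochrome oxidase gene mt-Co1 at 12756, 11792 and 14157 CPM in NRG1 mice, against 7096, 6288 and 8132 CPM in PBS mice; the mt-Rnr1 share moved with it. Of 21 antimicrobial genes 3 fell (8 with the replicate block). The share called was 21.7% of clock genes and 24.1% of glycolysis and hypoxia genes, against 9.34% of all genes tested. It was 25% of mitochondrially encoded and 14.3% of antimicrobial genes.

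In the other lists, rises and falls numbered 0 and 1 of 21 in base excision repair (1 and 2 with the replicate block), 1 and 1 of 26 in nucleotide synthesis (2 and 2 with the block), 2 and 3 of 21 among Wnt targets, 2 and 0 of 18 in the Notch pathway (2 and 1 with the block), 1 and 1 of 13 in the BCL2 family (1 and 2 with the block), 1 and 0 of 19 glucocorticoid-responsive genes (2 and 0 with the block), 1 and 0 of 26 in cholesterol biosynthesis, 0 and 1 of 27 in the unfolded protein response (0 and 6 with the block), 0 and 2 of 37 interferon genes (1 and 4 with the block) and 0 and 1 of 19 immune markers. The share called in these lists ran from 3.7% in the unfolded protein response to 23.8% among Wnt targets, against 9.34% of all genes tested. With the block, 967 of all 15045 genes were called higher and 1438 lower. By limma no gene was called in the remaining lists. Among 20 YAP and regenerative genes 2 had an unadjusted p under 0.05, and edgeR on sums per mouse called 0, DESeq2 on those sums 1, voom 1 and edgeR on 24 libraries 2; 1 was higher with the block. Among 7 MHC class II genes (median -1.39) 4 had an unadjusted p under 0.05, and the same 4 tools called 1, 5, 4 and 6; 3 were lower with the replicate block. Among 22 Paneth markers 0 had an unadjusted p under 0.05 and the tools called 0, 1, 0 and 0, while the replicate block gave 2 higher and 7 lower. Of 12 tuft markers 1 had an unadjusted p under 0.05 and edgeR on 24 libraries called 1, the other tools 0; 1 was lower with the block. The 4 endothelial and 3 mesenchymal markers tested, and the 1 erythroid marker, had 0 at an unadjusted p under 0.05 and 0 by each tool.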
